A study of Mus musculus with 4 samples.

Results

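The classical MHC-II chain genes H2-Ab1, H2-Aa, H2-Eb1 and H2-Eb2 were examined for binding of the transcription factor Runx3 in splenic CD4+ DC. A Runx3 peak was counted at a gene when its centre lay in the gene body or within 20 kb of it, and 16 of the 15121 peaks in the deposited list met this rule for at least 1 of the 4 genes. Chromatin came from sorted CD11chiMHCII+CD4+ DC of about 15 mice, and the labels do not say whether this number is for each replicate or in all. They name no treatment or modified allele. The 2 Runx3 immunoprecipitates and the first of the 2 inputs, which are whole cell extract chromatin without antibody, are labelled C57BL/6, and the second input is labelled C57BL/7. The antibody was a polyclonal anti-Runx3 Ab made by the authors. Peaks were called by the authors in a single comparison of both immunoprecipitates with both inputs, so no peak has a value per replicate, no spread between replicates can be given and no test between samples was possible. The only measured value of a peak besides its position is a score written by the peak caller MACS2, whose unit is not stated. Scores in the whole list ran from 1.33 to 309, with a median of 12.1 and an upper quartile of 23.2. The files hold no read counts, so the number of reads behind each score is unknown, and where no peak is listed, binding was only not detectable in this call. The labelled cell type could not be checked against marker genes, since binding and not expression was measured.

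MHC-II molecules are dimers of an alpha and a beta chain that present peptides of ingested proteins to CD4+ T cells, and DC carry them at high levels. In the mouse, H2-Aa and H2-Ab1 encode the alpha and beta chain of the I-A molecule. H2-Eb1 encodes the beta chain of I-E, and H2-Eb2 is a further E beta gene. The E alpha gene is inactive in C57BL/6 mice and is annotated as the pseudogene H2-Ea-ps. Promoters of MHC-II genes carry a conserved module of X, X2 and Y boxes, which is bound by the RFX complex, CREB and NF-Y and recruits the transactivator CIITA. RUNX factors bind the hexamer TGTGGT, and TGACGT, which the study connects with the DC factor zDC, is also the core of an X2 box.

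The promoter sequences of the 4 genes are given because peaks lay over 3 of them. Each runs from 200 bp upstream of the TSS to 50 bp into the gene, in the direction of transcription, with the Y box CTGATTGG and any TGACGT in capitals (mm9, NCBIM37 sequence).
H2-Ab1 (chr17:34399954-34400203, plus strand): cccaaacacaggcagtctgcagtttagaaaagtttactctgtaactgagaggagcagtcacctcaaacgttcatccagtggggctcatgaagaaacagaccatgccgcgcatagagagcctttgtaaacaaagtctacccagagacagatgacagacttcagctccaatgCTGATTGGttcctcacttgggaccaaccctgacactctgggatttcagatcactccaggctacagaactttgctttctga
H2-Aa (chr17:34424723-34424972, minus strand): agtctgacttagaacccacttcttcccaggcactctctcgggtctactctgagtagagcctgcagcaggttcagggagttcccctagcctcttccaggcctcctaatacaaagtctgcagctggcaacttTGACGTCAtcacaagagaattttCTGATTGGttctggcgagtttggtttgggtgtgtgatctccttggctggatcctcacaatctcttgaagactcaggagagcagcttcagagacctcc
H2-Eb1 (chr17:34442628-34442877, plus strand): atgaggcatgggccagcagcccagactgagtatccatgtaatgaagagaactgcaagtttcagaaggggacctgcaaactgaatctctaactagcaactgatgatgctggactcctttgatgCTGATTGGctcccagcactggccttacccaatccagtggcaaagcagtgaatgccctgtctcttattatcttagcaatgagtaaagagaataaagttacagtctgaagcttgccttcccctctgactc
H2-Eb2 (chr17:34462410-34462659, plus strand): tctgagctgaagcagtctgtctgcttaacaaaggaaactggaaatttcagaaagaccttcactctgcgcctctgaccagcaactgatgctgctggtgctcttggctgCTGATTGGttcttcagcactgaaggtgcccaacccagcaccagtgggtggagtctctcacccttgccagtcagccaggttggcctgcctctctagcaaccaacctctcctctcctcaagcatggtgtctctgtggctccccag
All 4 promoters held CTGATTGG, which was found in 4.35% of the 250 bp promoters of protein-coding genes. It began 30 bp upstream of the TSS in H2-Ab1, 47 bp in H2-Aa, 78 bp in H2-Eb1 and 93 bp in H2-Eb2. TGACGT occurred in the H2-Aa promoter on both strands, overlapping in TGACGTCA from 70 bp upstream of the TSS, and was not present in the other 3 windows. Of all coding promoters 7.96% held it. TGTGGT was in none of the 4 windows, against 12.8% of all coding promoters.

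For the distal peaks, stretches of up to 150 bp are given for 5 of the 6 peaks with the highest scores. They contrast peaks with a RUNX hexamer near the centre or farther from it (peaks 9, 10 and 16) and strong peaks without one (peaks 2 and 7). Capitals mark TGTGGT, which reads ACCACA where it lies on the minus strand. Peaks are numbered 1 to 16 by position on the chromosome.
Peak 2 (chr17:34394697-34394846, plus strand): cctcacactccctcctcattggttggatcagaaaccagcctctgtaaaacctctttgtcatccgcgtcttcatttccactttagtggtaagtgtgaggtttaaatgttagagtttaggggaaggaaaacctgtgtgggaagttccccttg
Peak 7 (chr17:34428695-34428844, plus strand): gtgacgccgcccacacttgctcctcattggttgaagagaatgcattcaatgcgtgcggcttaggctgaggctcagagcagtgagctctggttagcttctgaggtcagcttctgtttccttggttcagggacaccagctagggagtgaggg
Peak 9 (chr17:34431892-34432041, plus strand): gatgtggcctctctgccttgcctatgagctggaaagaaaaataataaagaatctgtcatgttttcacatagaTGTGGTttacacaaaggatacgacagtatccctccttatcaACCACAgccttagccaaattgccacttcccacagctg
Peak 10 (chr17:34432983-34433132, plus strand): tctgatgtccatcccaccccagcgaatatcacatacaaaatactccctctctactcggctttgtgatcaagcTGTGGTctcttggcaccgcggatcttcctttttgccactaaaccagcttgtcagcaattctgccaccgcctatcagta
Peak 16 (chr17:34485054-34485203, plus strand): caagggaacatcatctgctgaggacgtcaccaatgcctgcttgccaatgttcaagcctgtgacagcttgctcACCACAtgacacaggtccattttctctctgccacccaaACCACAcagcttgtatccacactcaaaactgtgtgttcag
Of these, peaks 9 and 10 had a hexamer 28 bp and 24 bp from the centre.

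All 4 genes had at least 1 peak, as did 50.4% of the 22367 protein-coding genes under the same rule. A peak with a score of 23.2 or higher lay at each of the 4 genes and at 20.2% of protein-coding genes. H2-Aa had 13 peaks, H2-Eb1 9, H2-Ab1 6 and H2-Eb2 5. As many peaks or more were found at 0.0358% of protein-coding genes for H2-Aa, at 0.264% for H2-Eb1, at 1.73% for H2-Ab1 and at 3.32% for H2-Eb2. The genes are neighbours, however, and share peaks. Of the 16 peaks 3 lay within the limit of 1 gene, 9 of 2 genes and 4 of 3 genes. When each peak was given to the nearest of the 4 genes, H2-Aa received 6, H2-Ab1 and H2-Eb1 4 each and H2-Eb2 2. The count for H2-Aa also depends on its annotated span (34406276 to 34424772), since transcript H2-Aa-201 runs on to the end of H2-Ab1, whereas the transcript with the most exonic sequence, H2-Aa-001, begins at 34419689. With that transcript H2-Aa had 11 peaks.

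The window of the 4 genes with 20 kb on either side spans 117 kb (chr17:34380154-34497174). It held 13.7 peaks per 100 kb, against 0.591 over the sequenced genome, and 7.23% of its bases lay in peaks, against 0.264% of the genome. When the genome was cut into 21900 windows of the same length, 70.0% held no peak, 0 held 16 or more and the fullest held 14. This grid did not leave out the locus, and a border of it cut through the locus. No window of the grid could therefore hold all 16 peaks, and the fullest windows may include part of the locus itself. Of 15095 windows of this length that started at a peak outside the locus, 0 held 16, and the fullest, on chromosome 7 around Rps16, Zfp36 and Samd4b, held 15. These counts describe the list and are not a test, since the window was placed on the genes. Outside the window, the next peaks lay 58721 bp before H2-Ab1, with a score of 19.8, and 23754 bp beyond H2-Eb2, with a score of 7.20. The latter was centred in Btnl2, a butyrophilin-like gene whose 5′ part lies in the window.

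**Figure D1:**
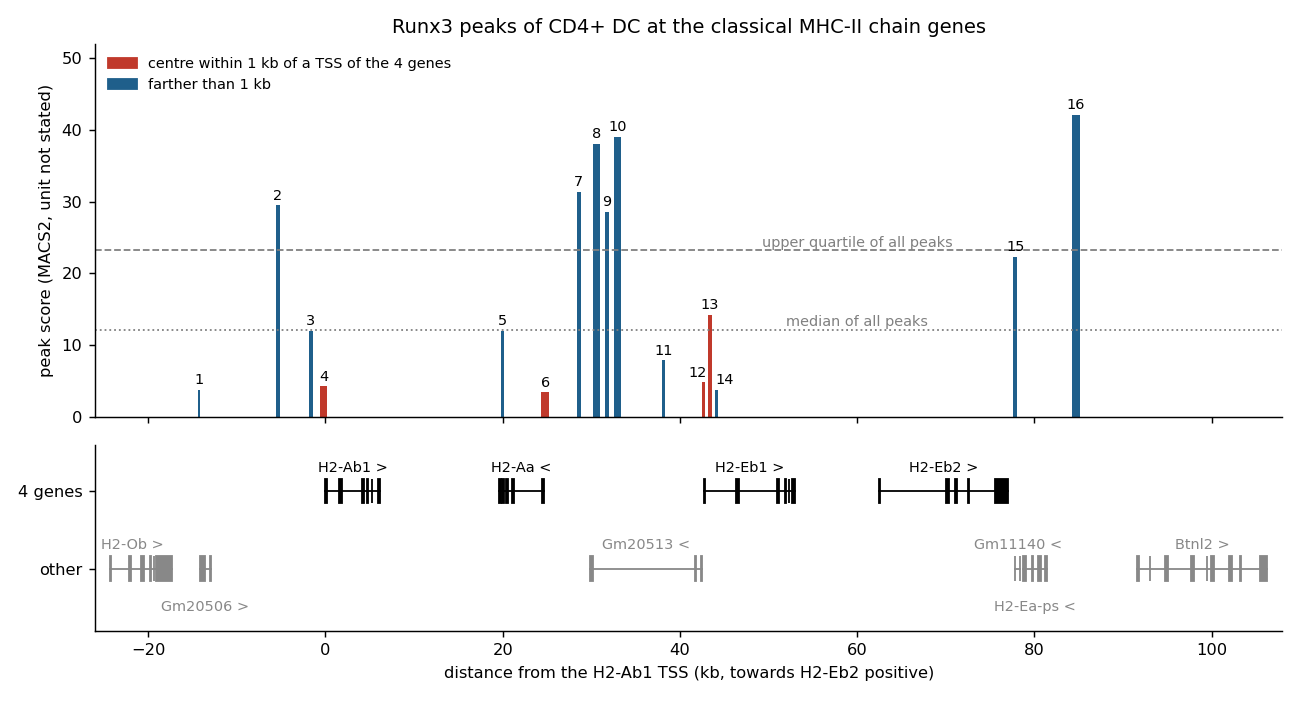
Runx3 peaks (top, score against distance from the H2-Ab1 TSS in kb, bar width equal to peak width, red within 1 kb of a TSS of the 4 genes and blue farther away, lines for the median and upper quartile of all peaks) above gene models (bottom, exons of 1 transcript a gene, H2-Aa-001 for H2-Aa, with > and < for the direction of transcription). Peaks 7 to 10, between H2-Aa and H2-Eb1, scored 28.6 to 39.0, whereas peaks 4, 6 and 12 at the TSS of H2-Ab1, H2-Aa and H2-Eb1 scored 3.39 to 4.79. No peak was centred in H2-Eb2.

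The 16 peaks scored 3.39 to 42.1, and their median was 13.1 (binomial 95% interval of the median 4.23 to 31.3, which covers counting error only), close to the list median of 12.1. At or above the upper quartile lay 6 of them, or 37.5%, as did 25.4% of all peaks. The strongest, peak 16, ranked 1495 in the list. Low scores were common next to the TSS of the 4 genes and high scores farther away. The 4 peaks centred within 1 kb of a TSS of the 4 genes scored 3.39 to 14.2, with a median of 4.51. The 12 peaks farther away scored 3.68 to 42.1, with a median of 25.4. The ranges overlap, and peaks of 1 locus are not replicates, so this difference was not tested. Over the whole list, the 5486 peaks within 1 kb of a coding TSS had a median score of 12.7 and the 9635 others one of 12.0. By this wider rule peak 15, near the TSS of the coding gene Gm11140, is also a TSS peak, and the medians at the locus were then 4.79 for 5 peaks and 28.6 for 11.

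Peaks lay within 1 kb of a TSS for 3 of the 4 genes, and for 24.9% of protein-coding genes. At H2-Ab1 (chr17:34400154-34406363, plus strand), the I-A beta chain gene, peak 4 (34399578 to 34400298) covered the TSS and was centred 216 bp upstream of it, with a score of 4.23. Of all peaks near a coding TSS 5.67% scored lower. At H2-Aa, the I-A alpha chain gene on the minus strand, peak 6 (34424531 to 34425367) covered the TSS with its centre 177 bp upstream and scored 3.39, and 3.24% of TSS peaks scored lower. At H2-Eb1 (chr17:34442828-34453144, plus strand), peak 12 (34442675 to 34443038) was centred in exon 1 and scored 4.79, and 8.59% of TSS peaks scored lower. Peaks 4, 6 and 12 each contained the Y box of the promoter they covered. A further H2-Eb1 peak, peak 13 (34443352 to 34443763), was centred in intron 1 and was the strongest of the 4 TSS peaks, with a score of 14.2.

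The TSS peaks of the I-A genes were wide for their scores. Peak 4 measured 721 bp and peak 6 measured 837 bp, whereas the median width was 406 bp over the list and 293 bp over the 1700 peaks with a score under 5. Peak 12 at H2-Eb1 measured 364 bp. Among the other members, peaks 8, 10 and 16 were also over 700 bp wide, at 809, 827 and 907 bp, but scored 38.1 to 42.1.

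**Figure D2:**
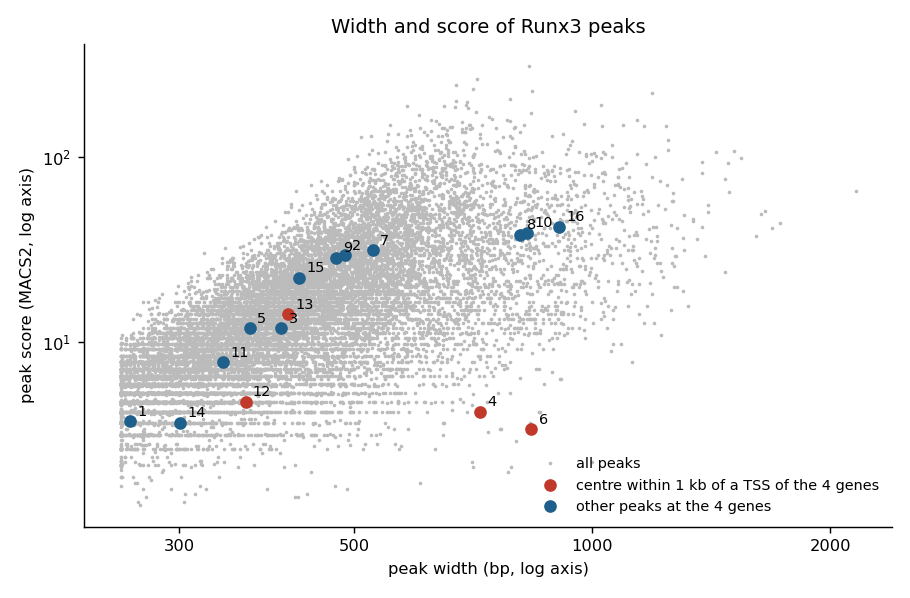
Peak score against peak width in bp, both on log axes, for all peaks (grey) and for the 16 numbered peaks at the classical MHC-II genes (red within 1 kb of a TSS of the 4 genes, blue farther away). Peaks 4 and 6, 721 and 837 bp wide, lie at scores of 4.23 and 3.39, below most grey points of like width.

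Upstream of H2-Ab1 lay 3 more peaks. Peak 3 (34398317 to 34398720), 1635 bp upstream, scored 12.0 and held CTGATTGG and the AP-1 site TGANTCA. Peak 2 (34394529 to 34395014), 5382 bp upstream, scored 29.5 and was the only peak of H2-Ab1 above the list median. Peak 1 (34385768 to 34386027), 14256 bp upstream, scored 3.76 and lay 104 bp from the TSS of the noncoding gene Gm20506, within the annotated span of H2-Ob, which encodes the beta chain of the peptide-loading regulator H2-O. No peak was centred in the body of H2-Ab1, and the centre of the next, peak 5, lay 20206 bp from that of peak 4. Peak 5 (34419960 to 34420328) was centred in exon 4 of H2-Aa, scored 12.0 and held TGTGGT 3 times.

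The strongest group of neighbouring peaks lay between H2-Aa and H2-Eb1, which are transcribed away from each other. Peak 7 (34428507 to 34429033) was 3998 bp upstream of the H2-Aa TSS and scored 31.3. Peak 8 (34430318 to 34431126) followed at 5950 bp with a score of 38.1, and peak 9 (34431702 to 34432175) at 7167 bp with 28.6. Peak 10 (34432669 to 34433495), 8310 bp upstream of H2-Aa and 9746 bp upstream of H2-Eb1, scored 39.0. All 4 scored higher than 80% of the list (80.9% to 88.6%). Peaks 8 to 10 and the weaker peak 11 (34438133 to 34438473, score 7.84) lay in intron 2 of Gm20513, a noncoding gene annotated on the minus strand. Neighbouring centres from peak 7 to peak 10 were 1952, 1217 and 1143 bp apart, against a median of 3821 bp between neighbours at the locus. The lower-scoring peaks 12 to 14 at H2-Eb1 lay closer, at 701 and 702 bp, and peaks 3 and 4 lay 1419 bp apart. Beyond the H2-Eb1 TSS peaks, peak 14 (34444110 to 34444410) in intron 1 scored 3.68, and no peak was centred in the rest of H2-Eb1.

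H2-Eb2 (chr17:34462610-34477174, plus strand) held no peak centre in its body, and the centre nearest to its TSS was 15392 bp away. The centres of peaks 14 and 15, on either side of it, lay 33742 bp apart, the widest spacing of neighbours at the locus. The 2 peaks nearest to H2-Eb2 lay beyond its 3′ end. Peak 15 (34477789 to 34478214), 828 bp beyond the gene, scored 22.3 and was centred in intron 1 of the neighbouring gene Gm11140, 566 bp from its TSS. Peak 16 (34484420 to 34485326), 7699 bp beyond the gene and 3284 bp upstream of H2-Ea-ps, scored 42.1, higher than 90.1% of the list. It held TGTGGT 3 times, TGACGT, CTGATTGG and an ETS and IRF composite element (GGAA and GAAA with 2 bases between them). Its hexamers lay 256 bp or more from the centre. The other peaks counted for H2-Eb2 were peaks 12 to 14 at H2-Eb1.

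Reads were aligned uniquely, so a stretch that recurs in the genome receives no reads. All stretches of 50 bp, the read length, inside the 16 peaks occurred a single time in NCBIM37. The same was true of 98.1% of the stretches in the body of H2-Eb2 and of at least 94.4% in each of the other 3 genes. The share was 96.0% between peaks 4 and 5 and 96.8% between peaks 14 and 15, the longest intervals without a peak. Only exact matches were counted, so stretches with near copies elsewhere passed as single. Whether reads were lost in these intervals was not tested.

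The RUNX hexamer TGTGGT was looked for along each whole peak, on either strand (N in other motifs stands for any base). It was found in 8 of the 16 peaks, or 50.0% (exact binomial 95% interval 24.7% to 75.3%), and in 54.0% of all peaks. In the 200 bp around the centre it was found in 4 of the 16, or 25%, and in 41.8% of all peaks, and of the 10 peaks within 5 kb of a gene body 30% held it. These differences were not tested. Peaks 5 and 16 held it 3 times, peak 9 held it 2 times and peaks 1, 4, 6, 8 and 10 held it a single time. Per kb of peak sequence it occurred 1.54 times at the locus and 1.82 times in the list. The 8 peaks with TGTGGT scored 3.39 to 42.1, with a median of 20.3, and the 8 without it 3.68 to 31.3, with a median of 13.1, so that the ranges overlapped. The medians over the list were 14.2 with and 10.5 without it. At the locus, the median width was 765 bp for peaks with the hexamer and 408 bp for those without, and the part of width in the difference was not tested. The variant TGCGGT was in 0 of the 16 peaks (exact binomial 95% interval up to 20.6%) and in 20.1% of all peaks. Either hexamer was in 66.5% of all peaks.

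CTGATTGG was in 5 of the 16 peaks, or 31.2% (exact binomial 95% interval 11.0% to 58.7%), and in 3.51% of all peaks. These were the TSS peaks 4, 6 and 12, which held it by their position over promoters that carry it, and the distal peaks 3 and 16. The peaks come from a single locus, so the interval covers counting error only, and the difference was not tested. TGACGT was in peaks 6 and 16, or 12.5%, and in 11.0% of all peaks. The AP-1 site TGANTCA was in peaks 3, 5 and 8, or 18.8%, against 13.2%. The PU.1 box GAGGAAGT was in peak 8 alone and in 14.6% of all peaks, and the ETS and IRF composite element was in peak 16 alone and in 7.81%. The sequences of peaks 2, 7, 11, 13, 14 and 15 held none of the 7 motifs. Only exact letters were searched, so near copies of a motif were not counted. The printed stretches of peaks 2 and 7 both hold CTCATTGG, which differs from CTGATTGG in a single base. GC content of the 16 peaks ran from 40.3% to 52.5% with a median of 46.7%, against 50.7% in the list.

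**Figure D3:**
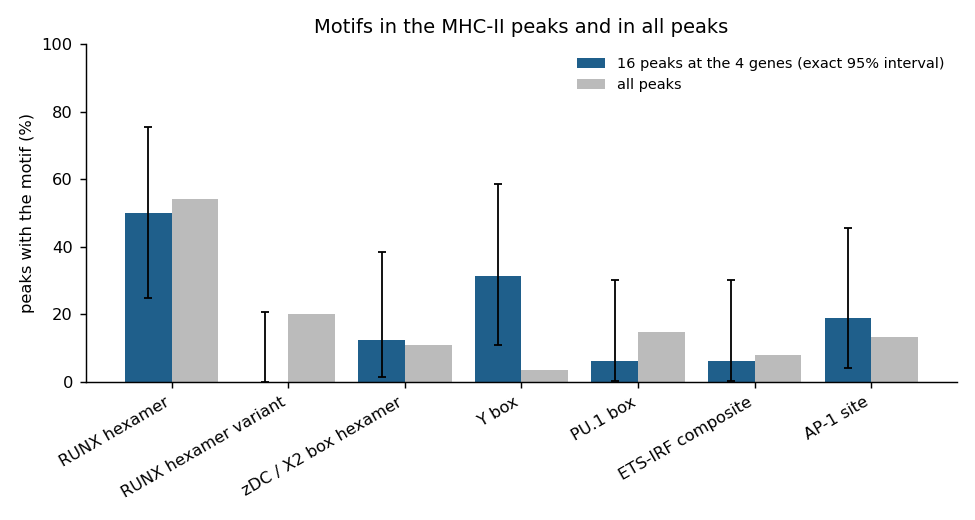
Share of peaks in % that hold each motif on either strand, for the 16 peaks at the classical MHC-II genes (blue, error bars exact binomial 95% intervals) and for all 15121 peaks (grey). The Y box was in 31.2% of the MHC-II peaks and in 3.51% of all peaks, and the RUNX hexamer in 50.0% and 54.0%. The MHC-II peaks with the Y box include those over the promoters of H2-Ab1, H2-Aa and H2-Eb1, which held it by their position.

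Other genes of the MHC-II pathway were counted under the same rule, from a list of 23 genes of which all matched the annotation. A peak was found at 20 of them, or 87.0%, beside the 50.4% of all protein-coding genes, and a peak with a score of 23.2 or higher at 11 of the 23, beside 20.2% of all protein-coding genes. The 11 include H2-Ob through peak 2, which was also counted for H2-Ab1 and H2-Aa. The genes without a peak were Rfxap, a subunit of the RFX complex, Nfyb, a subunit of NF-Y, and March8, a ubiquitin ligase of membrane proteins. Among the factors that act on the MHC-II promoter, 6 of 8 had a peak. Ciita, the transactivator, had 9 peaks, and its strongest (chr16:10487758-10488408) scored 91.3 and lay within 1 kb of a TSS. Rfx5, the DNA-binding subunit of RFX, and Creb1 had peaks of 104 and 107 within 1 kb of a TSS, the highest scores of the list of 23.

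All 6 genes of peptide loading had a peak, beside 50.4% of all protein-coding genes. A peak with a score of 23.2 or higher lay at 2 of the 6, beside 20.2%, and H2-Ob was counted there through peak 2. The 20 peaks of the 6 genes, each counted a single time, scored 3.76 to 46.2 with a median of 8.95, beside 13.1 for the 16 peaks of the classical genes. The 4 peaks of H2-Ob are peaks 1 to 4 of the classical genes, so both counts include them. Cd74, the invariant chain gene, had 5 peaks with a highest score of 46.2. H2-DMa and H2-DMb1, the chains of the peptide exchange molecule H2-DM, had 6 each with highest scores of 21.7 and 22.3. H2-DMb2 lies between these 2 genes and had 5 peaks. All of them share peaks, so their counts are not separate. The peak of 21.7 lay within the limit of H2-DMa and H2-DMb1, and within 1 kb of a TSS of H2-DMb2. The TSS peak of H2-DMa scored 8.49. The peak of 22.3 was also the highest of H2-DMb2. Lgmn, an endosomal protease gene, and March1, a ubiquitin ligase gene that acts on surface MHC-II, also had 6 peaks each, with highest scores of 35.2 and 42.9. March1 spans chr8:68141799-68995536 and is far longer than H2-DMa (chr17:34272127-34276046). A longer gene takes in more peaks under this rule, and the count for March1 was not set against its length. The 6 genes of antigen processing, which include the cathepsin genes Ctss, Ctsl, Ctsd and Ctsb, all had a peak, and the highest score was 67.0 at Ifi30, the thiol reductase of endosomes. Cd83, which limits the turnover of surface MHC-II, had 8 peaks with a highest score of 51.1.

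**Figure D4:**
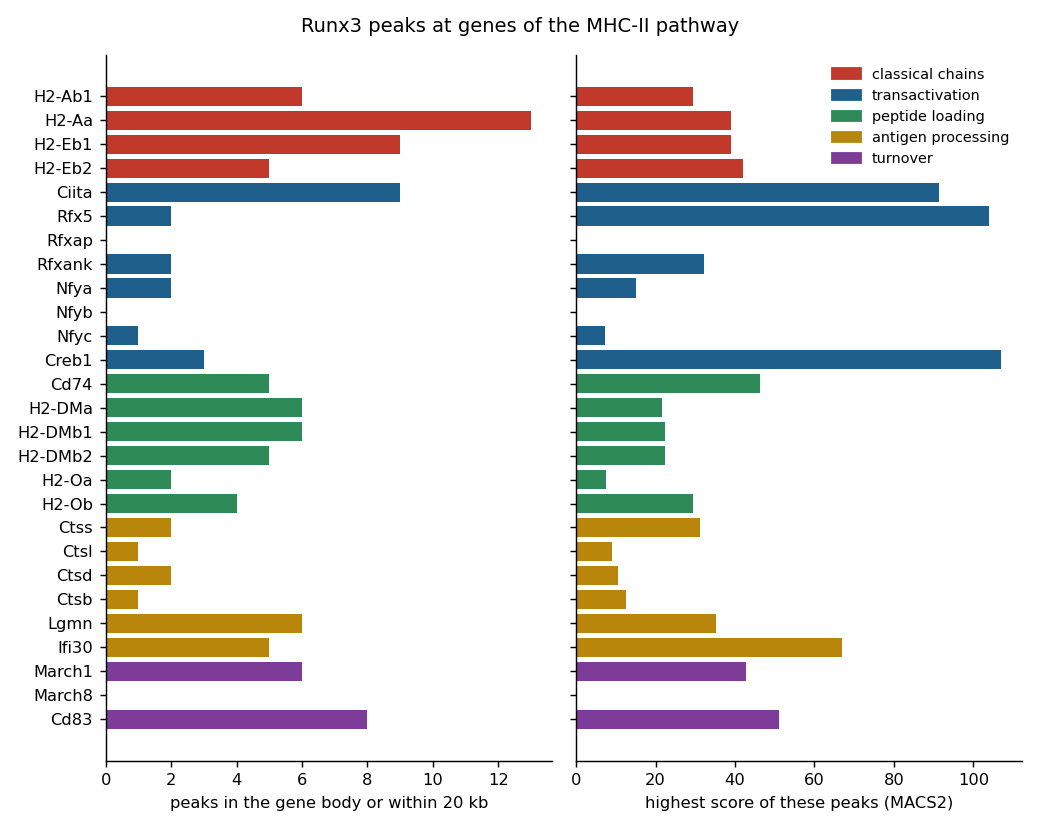
Number of Runx3 peaks in the gene body or within 20 kb (left) and highest score of these peaks (right) for the 4 classical chain genes and 23 further genes of the MHC-II pathway, coloured by role. H2-Aa had the most peaks, 13, while the highest scores, 91.3 to 107, were at Ciita, Rfx5 and Creb1.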

How the data were processed

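Runx3 ChIP-seq of sorted splenic CD4+ DC was analysed, with 2 immunoprecipitates and 2 inputs. The authors aligned reads of 50 bp (CASAVA 1.8 per the labels) uniquely to mm9 with bowtie and called peaks with MACS2 on the pooled samples; versions of both, threshold and duplicate handling are not given in the sources used here. Library totals are given in the study's methods and not in the file. The deposited list gives a start, an end and a score for each peak, and the score is in an unstated unit.

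Coordinates are 1-based on mm9. Bases were read from the NCBIM37 genome, which is this build, and gene models were those of GENCODE M1. A peak was placed by its centre, and exons were numbered in the coding transcript with the most exonic sequence. TSS were those of all annotated transcripts of a gene, and 2 annotated entries of Ciita were joined. Uniqueness of 50 bp stretches was computed by exact match on both strands over all sequences of the assembly. Peak counting, motif search and uniqueness were tested on simulated data. Genes, gene list, motifs and alternatives were chosen with earlier results of these data known. Named were the 4 genes, the genes nearest to their peaks, and of the pathway list the 3 genes with the highest score, the 3 with the most peaks and those without a peak. Cd74, H2-DMb2, the cathepsin genes, Ifi30, Rps16, Zfp36 and Samd4b, and the genes of the closing section other than the 4, were named after their values were seen. Expression arrays were not analysed here. Python 3.11.15, numpy 2.4.6, pandas 2.3.3, scipy 1.17.1 and matplotlib 3.10.9 were used.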

Additional observations from a re-analysis of the deposited data

How the results depend on the processing

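No paired analysis was possible because the deposited list is a single call on pooled samples, and for the same reason no replicate could be left out. Counts of peaks moved with both the score limit and the distance. When only peaks in the upper part of the list (median score or more) were kept, the 4 genes together had 8 peaks in place of 16, H2-Ab1 1, H2-Aa 6, H2-Eb1 5 and H2-Eb2 3, and 1 of the 4 genes had a peak within 1 kb of a TSS in place of 3. With a score at or above the upper quartile these counts were 6 for the 4 genes, 1 for H2-Ab1, 5 for H2-Aa, 4 for H2-Eb1, 1 for H2-Eb2 and 0 for genes with a TSS peak, and 11 of the 23 pathway genes had a peak in place of 20. Within 5 kb of the gene body the 4 genes together had 10 peaks, H2-Ab1 2, H2-Aa 3, H2-Eb1 4 and H2-Eb2 1. Within 10 kb H2-Ab1 had 3, H2-Aa 8, H2-Eb1 5 and H2-Eb2 2, and within 50 kb H2-Ab1 and H2-Eb2 had 14 each and H2-Eb1 16. Fewer peaks under a higher limit or a shorter distance follow from how these alternatives are built. The other alternatives moved counts by at most 1.5 times. The median score ran from 9.90 to 14.2. The share with TGTGGT fell from 50.0% to 25% in the 200 bp around the centre and to 30% within 5 kb, and was 46.7% to 55.6% under the others. With 16 peaks its interval is too wide to show stability. Counting the TSS of any coding gene, chosen after seeing the data, is given with the TSS peaks. Binding below the caller's threshold, and how far each replicate carries a peak, cannot be seen in a pooled list.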

Other observations

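A combination of large width and low score was followed through the list, with limits chosen after the values of the I-A promoters were seen. Of the 1191 peaks at least 700 bp wide, which had a median score of 32.3, 16 scored under 5, or 1.34%, and the TSS peaks of H2-Aa and H2-Ab1 were 2 of these. In all 10 of the 16 were centred within 1 kb of a coding TSS, among them peaks at Gsk3b (834 bp, score 3.69), Tank (766 bp, score 3.39) and Cmtm7 (859 bp, score 4.23). Over the whole list 5486 of the 15121 peaks were so placed. The share among all peaks at least 700 bp wide was not counted, so no link of wide, low peaks with a TSS was tested. Read coverage within these regions was not analysed here.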
